A study of Homo sapiens with 4 samples.

Results

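The genes described here are 10 regulators of the ATF4 stress response, namely ATF4, ATF5, ATF3, DDIT3, DDIT4, TRIB3, CHAC1, SESN2, GDF15 and CEBPB. They were taken by symbol from a table of 57905 gene identifiers, and each symbol matched 1 row. The table holds polyadenylated RNA of 4 libraries, 2 from cells transfected with an siRNA against KLF11 and 2 from cells transfected with a control siRNA, all collected 48 hours after transfection. All were labelled MG63, an established human osteosarcoma line, no other treatment or genetic change was named for either group, and the study's title concerns KLF11, YAP activity and cancer stem cell traits in sarcoma. Nothing in the labels says that the replicates were separate cultures, so the p-values measure the spread between these libraries only, which may be technical. Values are FPKM, fragments scaled to gene length and library size, given in replicate order.

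ATF4 is a basic leucine zipper transcription factor at the end of the integrated stress response. When a stress kinase phosphorylates the translation factor eIF2 alpha, most protein synthesis falls while the ATF4 message is translated better, so the level of ATF4 RNA is only part of its control. ATF4 then pairs with other leucine zipper proteins of the ATF and C/EBP families and acts on genes for amino acid supply, on feedback regulators such as TRIB3 and on the death-linked factor CHOP, which DDIT3 encodes. The element it binds in such genes joins a C/EBP and an ATF recognition site.

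The markers of the labelled cells were only partly present, so that the marker levels put the MG63 label in doubt, and it is used here only as the libraries' label. Of 10 osteoblast markers 5 reached 1 FPKM in every library, IBSP was listed at 0 throughout, SP7 did not exceed 0.04 FPKM and RUNX2 had 0.60 and 0.65 FPKM with KLF11 siRNA and 0.03 and 0.02 FPKM with control siRNA. Of the 5 osteoblast markers tested 1 was called higher and 1 lower: SPP1, the osteopontin gene, had 247 and 99.1 FPKM with KLF11 siRNA and 2.31 and 2.76 FPKM with control siRNA, and COL1A1 had 11.9 and 15.8 FPKM with KLF11 siRNA and 23.3 and 22.3 FPKM with control siRNA. All 10 pluripotency markers reached 1 FPKM in every library. CER1, an early endoderm marker, was at 958 and 2574 FPKM with KLF11 siRNA and 4430 and 4406 FPKM with control siRNA. The summed level of the pluripotency markers was 3016 and 2518 FPKM with KLF11 siRNA and 1542 and 1556 FPKM with control siRNA, with 6 of 10 called higher and 1 lower by the test described next. Every count of called markers here stands beside 13.5% of all tested genes called higher and 21.7% called lower. POU5F1 alone gave 1364 and 1068 FPKM of the pluripotency sums with KLF11 siRNA and 186 and 177 FPKM with control siRNA. For 11 early endoderm markers the sum was 1330 and 3144 FPKM with KLF11 siRNA and 5316 and 5297 FPKM with control siRNA, with 2 called higher and 5 lower. CER1 made up most of that sum in every library and was itself not called (adjusted p = 0.0543 in limma). AFP, 1 of the 2 called higher, had 4.41 and 1.11 FPKM with KLF11 siRNA and was listed at 0 in the controls. It passed the level filter, a mean of at least 1 FPKM, only through the KLF11 siRNA libraries. The sum for 10 epithelial markers was 1189 and 1433 FPKM with KLF11 siRNA and 2586 and 2390 FPKM with control siRNA. Of these markers 0 were called higher and 8 lower. At an unadjusted p under 0.05 in limma 0 were higher and 9 lower, beside 7353 of all 15320 tested genes in either direction. CLDN3, 1 of the 8, had 0.80 and 1.05 FPKM with KLF11 siRNA and passed the level filter only through the controls. For 10 mesenchymal markers the sum was 1251 and 1294 FPKM with KLF11 siRNA and 733 and 667 FPKM with control siRNA, with 3 of 7 tested called higher, 2 lower and a median log2 change of -0.25. PDGFRB, 1 of the 3, had 0.61 and 0.32 FPKM with control siRNA and passed the filter only through the KLF11 siRNA libraries. Without VIM, which had 808 and 800 FPKM with KLF11 siRNA and 144 and 131 FPKM with control siRNA, the mesenchymal sum lay the other way, at 443 and 494 FPKM with KLF11 siRNA and 589 and 536 FPKM with control siRNA. The 10 leukocyte markers stayed under 1 FPKM in every library. The pluripotency, endoderm and epithelial sums moved with the same groups as the regulators, and their part in the results was not tested.

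With KLF11 siRNA the regulators did not move as a block. GDF15, CHAC1, ATF5, TRIB3 and ATF4 rose, while the levels of DDIT3, ATF3, DDIT4, SESN2 and CEBPB did not pass the test. The fold of the means ran from 1.49 for ATF4 to 9.20 for GDF15 among the genes that rose. A gene was called at an adjusted p under 0.05 in limma, fitted on log2(FPKM + 1) over the 15320 genes with a mean of at least 1 FPKM. On that rule 5 of 10 regulators were called higher, where 13.5% of all tested genes were called higher, and 0 of 10 were called lower, where 21.7% of all tested genes were. TRIB3, 1 of the 5, had a control mean of 0.83 FPKM and passed the level filter only through the KLF11 siRNA libraries. With no filter 3 regulators were called higher, beside 887 of 34232 genes. Median-of-ratios scaling, which moved the median change of all genes up by 0.12 (log2), called 18.1% of genes higher and 16.9% lower, and with it 6 regulators were higher and 0 lower. At an unadjusted p under 0.05 in limma, 6 of the regulators were higher and 1 was lower. Of all 15320 tested genes, 7353 reached that threshold in either direction. For none of the 10 did the groups overlap, 7 being higher and 3 lower in both KLF11 siRNA libraries. In bulk RNA fewer cells of a type cannot be told apart from less RNA per cell. Such separation was found upward in 28.9% and downward in 44.5% of tested genes.

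**Figure D1:**
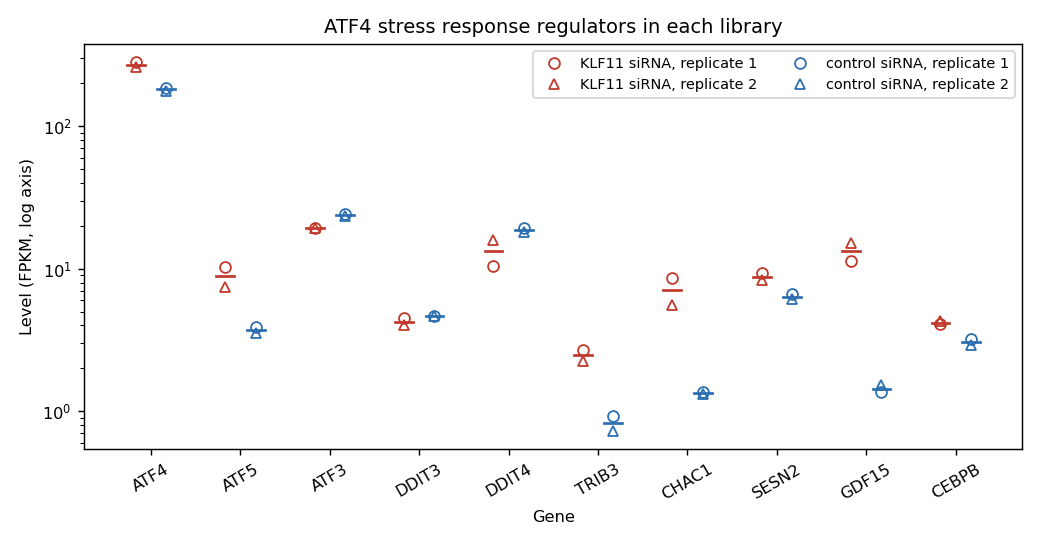
Level of each regulator in every library, in FPKM on a log axis, with KLF11 siRNA in red left of control siRNA in blue; circles are replicate 1, triangles replicate 2 and lines group means. GDF15 and CHAC1 stand furthest apart between the groups, and DDIT3 least.

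The start regions of these genes were read from RefSeq (GRCh38.p14) to show where the letters of an ATF4-type element lie. The table held 18 windows for the 10 genes, each reaching from 250 bases before an annotated start to 50 bases after it. The core TGATGNAA of the C/EBP-ATF response element, searched on both strands, lay in 2 of these windows and in 3.62% of all 35116 windows of the table. The cyclic AMP response element TGACGTCA, which reads the same on both strands and shares no whole match with that core, lay in 0 of the 18 and in 1.85% of all windows. The 250 bases before the start are printed for the 2 windows with a match, at chr1:212565157-212565406 for the upstream of the 2 annotated starts of ATF3 and at chr15:40953221-40953470 for CHAC1, both on the plus strand and 5′ to 3′, with the matched letters in capitals.

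ATF3: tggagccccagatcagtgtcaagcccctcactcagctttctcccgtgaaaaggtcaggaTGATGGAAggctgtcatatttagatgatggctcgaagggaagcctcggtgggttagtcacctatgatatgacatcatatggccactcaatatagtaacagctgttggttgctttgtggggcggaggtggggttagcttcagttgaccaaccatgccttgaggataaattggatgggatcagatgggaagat

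CHAC1: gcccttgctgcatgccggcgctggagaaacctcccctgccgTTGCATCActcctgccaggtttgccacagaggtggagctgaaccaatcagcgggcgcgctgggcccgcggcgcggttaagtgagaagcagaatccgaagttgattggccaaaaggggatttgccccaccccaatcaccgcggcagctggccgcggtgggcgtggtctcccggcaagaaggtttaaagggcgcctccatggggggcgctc

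The ATF3 match TGATGGAA begins 191 bases before that start. In CHAC1 the capitals read TTGCATCA and begin 209 bases before the start, so the core is on the opposite strand, where it reads TGATGCAA. CHAC1 rose and ATF3 did not, so the genes holding these letters did not share a direction. A GC box core, GGGCGG on either strand, was searched as well because Krüppel-like factors bind GC-rich DNA, a choice made after the data had been seen. It lay in 14 of the 18 windows, covering 8 of 10 genes, and in 45.0% of all windows. DDIT4 and CHAC1 were the genes without it. The windows of ATF4, those of DDIT3 and those of TRIB3 overlap for most of their length, so the same letters are counted more than once. The share of all genes with a GC box was not computed. These matches describe letters and were not tested as binding sites.

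ATF4 was by far the most abundant of the regulators. Its level was 281 and 260 FPKM in KLF11 siRNA libraries, against 187 and 178 FPKM in control siRNA libraries. Both KLF11 siRNA libraries lay above both controls, with means of 271 ± 14.3 and 182 ± 6.6 FPKM (SD, n = 2 each). The log2 change was 0.57 (SE 0.0863, adjusted p = 0.00961), a 1.49-fold rise. The table also lists the processed copies ATF4P1, ATF4P3 and ATF4P4, and none of them exceeded 0.09 FPKM in any library.

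ATF5 encodes a close relative of ATF4 whose message is likewise translated better under stress. Its level was 10.2 and 7.49 FPKM with KLF11 siRNA and 3.88 and 3.55 FPKM with control siRNA. The KLF11 siRNA libraries differed from each other by 1.37-fold, while the nearest libraries of the groups differed by 1.93-fold. The fold of the means was 2.38 (log2 change 1.05, SE 0.182, adjusted p = 0.0131). In GENCODE release 29, 21.2% of its exonic bases overlap NUP62 on the opposite strand, a gene at 35.4 and 35.4 FPKM with KLF11 siRNA and 40.9 and 33.7 FPKM with control siRNA, and without the strand setting reads of such a pair cannot be told apart.

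The other 3 leucine zipper regulators did not pass the test. ATF3, an immediate early factor that stress also induces, had 19.4 and 19.4 FPKM in KLF11 siRNA libraries and 24.0 and 23.5 FPKM in control siRNA libraries. Its libraries were tight within each group and separated by 1.21-fold at the nearest, in the opposite direction to ATF4 (log2 change -0.28, SE 0.0915, adjusted p = 0.0655). DDIT3, the CHOP gene, measured 4.5 and 4.0 FPKM with KLF11 siRNA and 4.67 and 4.68 FPKM with control siRNA. That is the smallest difference of the 10 (log2 change -0.11, SE 0.145, adjusted p = 0.569), beside a median of -0.11 over all tested genes, and with quantile normalization its sign turned (log2 change 0.05). Its exons overlap those of MARS, the methionyl tRNA synthetase gene on the opposite strand, over 27.2% of their bases, and MARS was at 97.2 and 103 FPKM with KLF11 siRNA and 72.3 and 72.7 FPKM with control siRNA. CEBPB, a C/EBP factor that can pair with ATF4, had 4.09 and 4.29 FPKM with KLF11 siRNA and 3.23 and 2.89 FPKM with control siRNA (log2 change 0.36, SE 0.153, adjusted p = 0.127). It passed with quantile normalization (adjusted p = 0.0438).

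CHAC1 and TRIB3, which act downstream of ATF4, both rose. CHAC1 degrades glutathione, and its level was 8.54 and 5.56 FPKM with KLF11 siRNA, against 1.37 and 1.31 FPKM with control siRNA. The lower KLF11 siRNA library was still 4.06-fold above the higher control. Its mean was 5.26-fold higher (log2 change 1.76, SE 0.225, adjusted p = 0.00655). TRIB3 is a pseudokinase that restrains ATF4 in a feedback loop. It was at 2.69 and 2.25 FPKM with KLF11 siRNA and at 0.93 and 0.73 FPKM with control siRNA, the lowest level of the 10 in both groups (log2 change 0.92, SE 0.196, adjusted p = 0.0214). With a control mean of 0.83 FPKM it passed the level filter only through the KLF11 siRNA libraries, and its call was lost with no filter (adjusted p = 0.0784). Leaving out KLF11 siRNA replicate 1 also lost it (adjusted p = 0.0555).

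GDF15, a secreted stress cytokine of the TGF-beta superfamily that p53 also induces, changed most. It reached 11.3 and 15.2 FPKM in KLF11 siRNA libraries, against 1.36 and 1.52 FPKM in control siRNA libraries. Its group means were 13.3 ± 2.7 and 1.44 ± 0.113 FPKM (SD, n = 2 each), a 9.20-fold difference (log2 change 2.53, SE 0.183, adjusted p = 0.00264). Of all tested genes, 99.5% had a lower log2 change, against 98.5% for CHAC1 and 88.4% for ATF4.

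DDIT4 and SESN2, both inhibitors of the growth kinase complex mTORC1 that several stresses induce, lay on opposite sides of the controls. DDIT4 measured 10.5 and 16.0 FPKM with KLF11 siRNA and 19.4 and 18.0 FPKM with control siRNA (log2 change -0.49, SE 0.203, adjusted p = 0.114). Its KLF11 siRNA libraries differed from each other by 1.53-fold, more than the 1.12-fold gap between the nearest libraries of the groups, and the call turned on replicate 2: without it the log2 change was -0.78 (adjusted p = 0.0121), and without replicate 1 it was -0.21. SESN2 measured 9.32 and 8.28 FPKM with KLF11 siRNA and 6.59 and 6.12 FPKM with control siRNA (log2 change 0.41, SE 0.132, adjusted p = 0.0621). Under median-of-ratios scaling it passed at a log2 change of 0.53 (adjusted p = 0.0338), and likewise with quantile normalization (adjusted p = 0.027). In GENCODE release 29, 41.2% of the exonic bases of DDIT4 overlap DDIT4-AS1 on the opposite strand, a gene listed at 0 in both KLF11 siRNA libraries and at 0.48 and 1.64 FPKM in the controls.

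**Figure D2:**
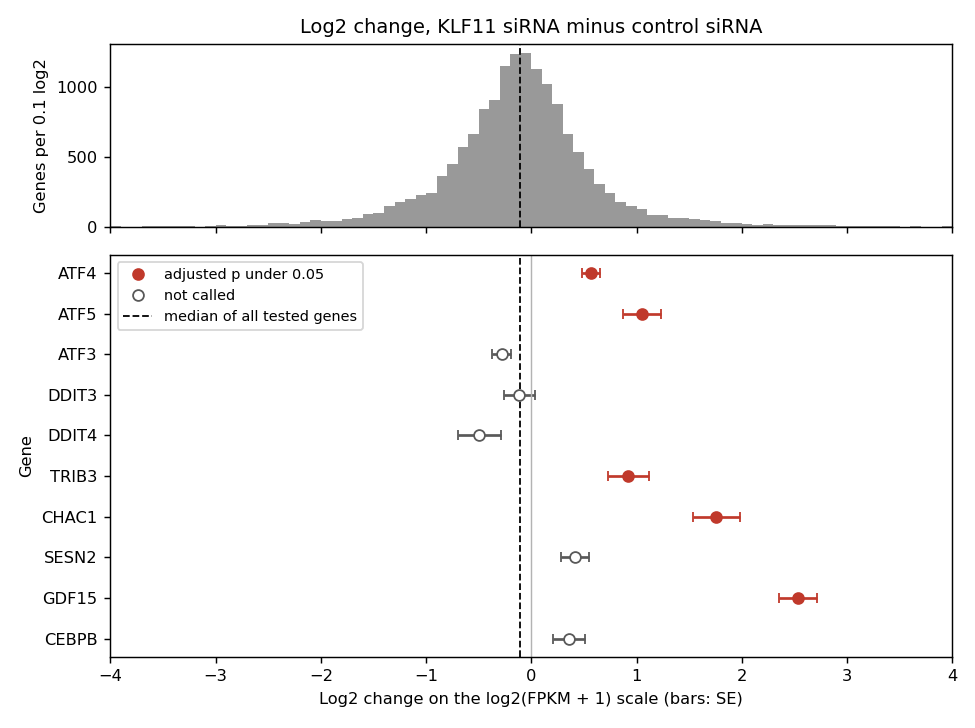
Log2 change (KLF11 siRNA minus control siRNA, on log2(FPKM + 1)) of all tested genes as a histogram above, and of each regulator with its SE below; filled red points had an adjusted p under 0.05 and the dashed line is the median of all tested genes, -0.11. GDF15 at 2.53 and CHAC1 at 1.76 lie in the upper tail, and DDIT3 at -0.11 lies on the median.

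The order of the levels differed between the groups. With KLF11 siRNA it ran ATF4, ATF3, DDIT4, GDF15, ATF5, SESN2, CHAC1, DDIT3, CEBPB and TRIB3, by mean FPKM. With control siRNA it ran ATF4, ATF3, DDIT4, SESN2, DDIT3, ATF5, CEBPB, GDF15, CHAC1 and TRIB3. With KLF11 siRNA the values of neighbours overlapped for DDIT4 and GDF15, ATF5 and SESN2, SESN2 and CHAC1, and DDIT3 and CEBPB. Among the controls those of GDF15 and CHAC1 overlapped. GDF15 thus stood beside DDIT4 in KLF11 siRNA libraries and beside CHAC1 in control libraries.

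All 5 calls rested on the pair of controls. With control siRNA replicate 1 or 2 left out, none of these calls held, nor did that of any other gene. The log2 changes then stayed close, at 2.49 and 2.58 for GDF15, 1.78 and 1.74 for CHAC1 and 0.60 and 0.53 for ATF4. KLF11 itself was 5.49 and 6.74 FPKM with KLF11 siRNA and 12.3 and 12.4 FPKM with control siRNA (log2 change -0.92, adjusted p = 0.00951 in limma). Its mean with KLF11 siRNA was 0.494 of the control mean. The direction matches the siRNA target of the labels, though 10.3% of all tested genes had a lower log2 change. Under median-of-ratios scaling ATF4 had a log2 change of 0.70 and ATF3 of -0.15, and DDIT3 was the only regulator whose sign turned in any scaling tried.

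**Figure D3:**
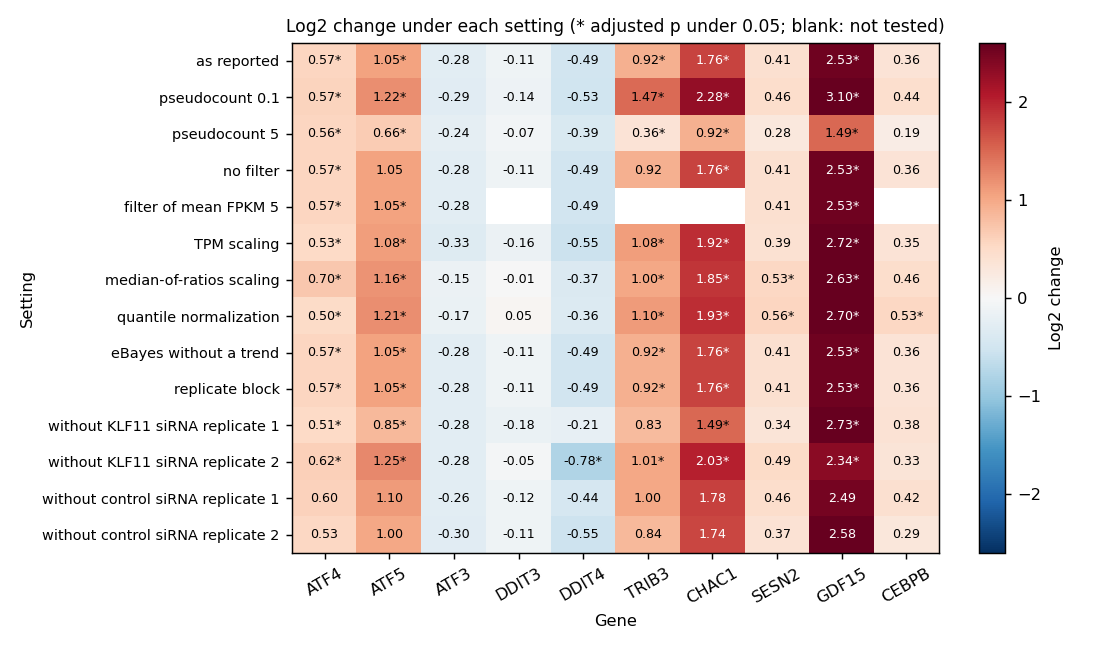
Log2 change of each regulator (columns) as reported and under each other setting (rows), with an asterisk for an adjusted p under 0.05 and blanks where a gene was not tested. GDF15 runs from 1.49 to 3.10 with all libraries kept, and every asterisk is lost in the rows without a control library.

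In the fit as reported, no gene for a kinase or a phosphatase subunit that sets eIF2 alpha phosphorylation was called, though some lay near the threshold. Counts of list genes called higher and lower are given below with their range over the 11 alternatives that kept both control libraries; without either control all of them were 0. Of 19 tested genes of eIF2, its kinases, its phosphatases and eIF2B, with IMPACT and DNAJC3, 2 rose and 0 fell (1 to 5 and 0 to 1). At an unadjusted p under 0.05 in limma 5 were higher and 2 lower, beside 7353 of all 15320 tested genes in either direction. The 10.5% called higher lay near the 13.5% of all tested genes, and the 0% called lower lay below their 21.7%. The median log2 change was -0.04 beside -0.11 for all tested genes. The 2 genes lower at an unadjusted p under 0.05 in limma were the kinase genes EIF2AK1 and EIF2AK2 (adjusted p = 0.0698 and 0.0678). EIF2AK1 had 50.7 and 51.7 FPKM with KLF11 siRNA and 60.6 and 60.4 FPKM with control siRNA. DNAJC3 and the phosphatase gene PPP1CA were among the 5 higher ones (adjusted p = 0.0559 and 0.0629). EIF2AK3, the kinase PERK, had 14.6 and 12.0 FPKM with KLF11 siRNA and 8.29 and 11.3 FPKM with control siRNA. PPP1R15A, the phosphatase subunit GADD34, had 20.1 and 22.5 FPKM with KLF11 siRNA and 26.7 and 23.2 FPKM with control siRNA. EIF2S3, the gamma subunit of eIF2, had 95.8 and 98.5 FPKM with KLF11 siRNA and 72.1 and 74.6 FPKM with control siRNA (adjusted p = 0.0178). EIF2B1, a subunit of the exchange factor that phosphorylated eIF2 blocks, rose 1.37-fold (adjusted p = 0.0214).

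Many genes of amino acid supply that are known ATF4 targets rose. Of 14 tested synthesis genes 7 rose and 1 fell (6 to 7 and 0 to 1), with a median log2 change of 0.43. These were 50% and 7.14% of the list, beside 13.5% and 21.7% of all tested genes. ASNS, asparagine synthetase and a classical ATF4 target, was at 89.2 and 58.3 FPKM with KLF11 siRNA and at 13.3 and 15.2 FPKM with control siRNA (5.17-fold, adjusted p = 0.00392). PSAT1 and PHGDH, enzymes of serine synthesis, rose 4.14-fold and 2.75-fold, and MTHFD2, a mitochondrial folate enzyme, rose 2.37-fold (adjusted p = 0.00324, 0.00237 and 0.00324). CBS, which makes cystathionine, was the gene that fell, to 149 and 171 FPKM with KLF11 siRNA, against 235 and 215 FPKM with control siRNA (adjusted p = 0.0223).

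Amino acid transporters and tRNA synthetases of the same programme showed the same direction of calls. Of 13 tested transporters 7 rose and 0 fell (2 to 9 and 0 to 1; 8 and 1 at an unadjusted p under 0.05 in limma), with a median log2 change of 0.69. The lowest count came with no filter, and SLC1A4, 1 of the 7, passed the filter only through the KLF11 siRNA libraries. SLC43A1, a carrier of large neutral amino acids, measured 7.07 and 5.96 FPKM with KLF11 siRNA and 1.72 and 1.19 FPKM with control siRNA (adjusted p = 0.0057). SLC7A1, the cationic amino acid carrier, rose 3.30-fold, SLC1A5, the glutamine carrier, 2.11-fold and SLC38A1 2.07-fold. Of 13 tested genes for ATF4-linked tRNA synthetases and the tRNA exporter XPOT, 9 rose and 0 fell (8 to 11 and 0 to 0; 11 and 0 at an unadjusted p under 0.05 in limma), with a median log2 change of 0.51. GARS rose 2.39-fold, IARS 1.79-fold, YARS 1.72-fold and TARS 1.7-fold. Of 8 other cytosolic synthetases 2 rose and 1 fell (0 to 5 and 0 to 1), with a median of 0.21. Called higher were 53.8% of the transporters, 69.2% of the ATF4-linked group and 25% of the other synthetases, beside 13.5% of all tested genes. Called lower were 0% of the transporters, 0% of the ATF4-linked group and 12.5% of the other synthetases, beside 21.7% of all tested genes. At an unadjusted p under 0.05 in limma stood 7353 of all 15320 tested genes, in either direction. FARSB and VARS rose 1.76-fold and 1.6-fold, and DARS had 46.1 and 44.6 FPKM with KLF11 siRNA and 58.8 and 58.5 FPKM with control siRNA. Whether the 2 sets of synthetases differ was not tested.

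**Figure D4:**
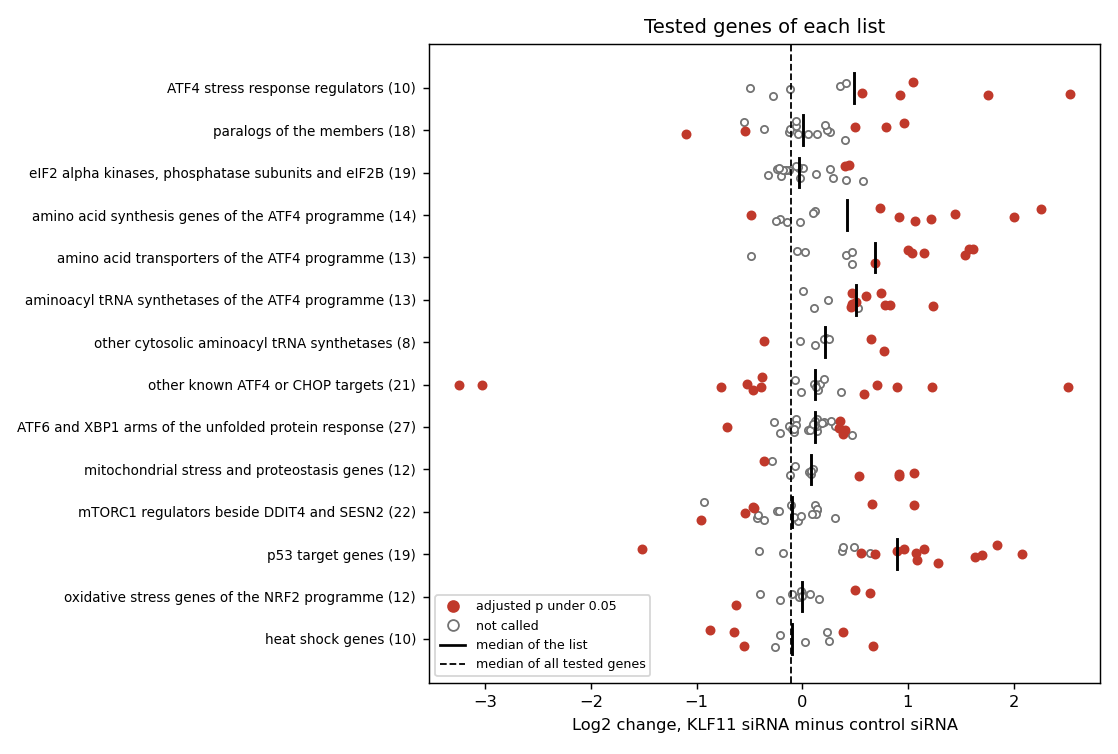
Log2 change of every tested gene of each list (number tested in brackets), with filled red points at an adjusted p under 0.05, a bar at the list's median and a dashed line at the median of all tested genes. Amino acid synthesis, transport and tRNA synthetase genes and p53 targets lie mostly to the right of the dashed line, and the eIF2, mTORC1 and heat shock lists lie around it.

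A mixed list of other genes linked to ATF4 or CHOP went both ways, in that 5 of 21 tested genes rose and 7 fell (4 to 6 and 2 to 7), with a median log2 change of 0.12. These were 23.8% and 33.3% of the list, beside 13.5% and 21.7% of all tested genes. STC2, a secreted glycoprotein, measured 13.3 and 9.09 FPKM with KLF11 siRNA and 0.76 and 1.5 FPKM with control siRNA (adjusted p = 0.00476). PMAIP1, the BH3-only gene NOXA, rose 2.44-fold and TNFRSF10B, a death receptor gene that CHOP can induce, 1.90-fold. TNFRSF10B is also in the list of p53 targets described below and is counted in both. The other genes of the list that rose were C6orf48 at 1.65-fold and HERPUD1 at 1.55-fold. VEGFA, the angiogenic growth factor, fell to 6.09 and 10.1 FPKM with KLF11 siRNA, against 73.7 and 69.8 FPKM with control siRNA (log2 change -3.04, adjusted p = 0.00264). CLDN7, an epithelial tight junction gene, had the lowest log2 change of the list at -3.25, with 5.78 and 19.3 FPKM with KLF11 siRNA and 115 and 106 FPKM with control siRNA. GADD45A and BBC3, both stress genes that p53 also induces, fell to 0.569 and 0.679 of their control means, and KLHL24, SQSTM1 and ULK1 to 0.701, 0.766 and 0.756 of theirs. INHBE and ALDH1L2, named after their values had been seen, were below the filter and had no test. INHBE, an ATF4-linked hormone gene, had 1.21 and 1.38 FPKM with KLF11 siRNA and 0.23 and 0.20 FPKM with control siRNA, and ALDH1L2, a mitochondrial folate enzyme gene, had 1.05 and 0.62 FPKM with KLF11 siRNA and 0.14 and 0.16 FPKM with control siRNA.

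Of 27 tested genes of the ATF6 and XBP1 arms of the unfolded protein response 4 rose and 1 fell (0 to 7 and 1 to 1), with a median log2 change of 0.12. The 14.8% called higher lay near the 13.5% of all tested genes, and the 3.7% called lower lay below their 21.7%. The higher count was 7 with median-of-ratios scaling, 2 with TPM scaling, 1 without a variance trend, and 0 with no filter and without KLF11 siRNA replicate 1. XBP1, the transcription factor of the IRE1 arm, had 63.8 and 60.2 FPKM with KLF11 siRNA and 46.4 and 46.7 FPKM with control siRNA (adjusted p = 0.0199). PDIA3 and PDIA4, disulfide isomerases of the endoplasmic reticulum, rose 1.31-fold and 1.27-fold, and the chaperone gene DNAJB11 1.29-fold. SEL1L, of the degradation machinery there, had 11.8 and 12.6 FPKM with KLF11 siRNA and 19.8 and 21.4 FPKM with control siRNA (adjusted p = 0.00926). HSPA5, the chaperone BiP, did not pass, with 305 and 249 FPKM in KLF11 siRNA libraries and 244 and 257 FPKM in control siRNA libraries.

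Of mitochondrial stress and proteostasis genes 4 of 12 tested rose and 1 fell (3 to 4 and 0 to 1), with a median log2 change of 0.08. These were 33.3% and 8.33% of the list, beside 13.5% and 21.7% of all tested genes. The chaperone genes HSPE1, HSPD1 and HSPA9 rose 2.10-fold, 1.91-fold and 1.90-fold and TFAM, which packages mitochondrial DNA, 1.47-fold. CLPX, of the mitochondrial protease ClpXP, was at 0.77 of its control mean. Of 10 cytosolic heat shock genes 2 rose and 3 fell (0 to 2 and 2 to 3), shares of 20% and 30% that lay near the 13.5% and 21.7% of all tested genes. The higher count was 0 with quantile normalization, without a variance trend and with no filter. HSPA8 and HSP90AB1 rose 1.61-fold and 1.31-fold, HSPB1 was at 0.644 of its control mean, and HSPA1A and HSPA1B, near-identical copies whose reads are hard to assign, were at 0.538 and 0.677 of theirs. In the NRF2 programme of oxidative stress 2 of 12 tested genes rose and 1 fell (0 to 3 and 1 to 2). The 16.7% called higher lay near the 13.5% of all tested genes, and the 8.33% called lower lay below their 21.7%. GCLM and PGD were higher at 1.62-fold and 1.42-fold, and NFE2L2, which encodes NRF2, was at 0.642 of its control mean.

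Targets of p53 were listed because GDF15 and SESN2 are also induced by p53. Of 19 tested, 12 rose and 1 fell (6 to 15 and 1 to 2), with a median log2 change of 0.89. These were 63.2% and 5.26% of the list, beside 13.5% and 21.7% of all tested genes. EDA2R, 1 of the 12, passed the filter only through the KLF11 siRNA libraries. TNFRSF10B and SESN1 are counted in other lists as well. GADD45A and BBC3, which p53 also induces and which fell, are counted only in the mixed list of ATF4 or CHOP genes. RRM2B, a ribonucleotide reductase subunit, rose 3.33-fold (adjusted p = 0.00318). PHLDA3, an inhibitor of AKT, had 29.8 and 18.4 FPKM with KLF11 siRNA and 5.77 and 5.84 FPKM with control siRNA (adjusted p = 0.00641). BTG2, an antiproliferative gene, fell to 11.6 and 16.7 FPKM with KLF11 siRNA, against 40.5 and 42.8 FPKM with control siRNA.

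Close relatives of the regulators moved apart from them in places. Of 18 tested genes listed as paralogs 3 rose and 2 fell (0 to 6 and 1 to 3), with a median log2 change of 0.01. The 16.7% called higher lay near the 13.5% of all tested genes, and the 11.1% called lower lay below their 21.7%. SESN1, a p53-induced relative of SESN2, had 16.0 and 11.9 FPKM with KLF11 siRNA and 6.75 and 6.43 FPKM with control siRNA (2.12-fold, adjusted p = 0.0128). CHAC2, the relative of CHAC1, rose 1.98-fold (adjusted p = 0.0162). CEBPZ, listed for its C/EBP name with its kinship to CEBPB not checked, rose 1.43-fold. DDIT4L, the relative of DDIT4, had 0.87 and 0.79 FPKM with KLF11 siRNA and 2.72 and 3.12 FPKM with control siRNA, and it passed the level filter only through the controls. TRIB1, a pseudokinase like TRIB3, went the other way from it, with 15.1 and 15.4 FPKM in KLF11 siRNA libraries and 22.6 and 22.9 FPKM in control siRNA libraries (adjusted p = 0.013).

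Among mTORC1 regulators other than DDIT4 and SESN2, 2 of 22 tested rose and 4 fell (1 to 2 and 1 to 5), with a median log2 change of -0.09. These shares of 9.09% and 18.2% lay near the 13.5% and 21.7% of all tested genes. RHEB, the GTPase that activates the complex, had 108 and 101 FPKM with KLF11 siRNA and 65.8 and 65.3 FPKM with control siRNA (adjusted p = 0.00638). Of the Rag GTPases, which report amino acids, RRAGD rose 2.40-fold, and RRAGB and RRAGC were at 0.479 and 0.669 of their control means. TSC2, which restrains RHEB, and NPRL3, of the GATOR1 complex that restrains the Rag GTPases, were at 0.717 and 0.711 of theirs.

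The tested genes whose pattern over the 4 libraries was nearest to that of ATF4, by Euclidean distance between centred log2(FPKM + 1) values, were PCBD2, PRMT6, GART, ASPH and ENO1, at distances of 0.0239 to 0.0335. Nearest to DDIT3 were UQCR11, MAPK14, NFXL1, BRD2 and PRPF39, at 0.0168 to 0.0225. These distances rest on 4 libraries that all genes share.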

How the data were processed

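Polyadenylated RNA was sequenced from 4 libraries, 2 per group, with groups read from the titles. The authors deposited FPKM values with 2 decimals. RSEM 1.3.1, Trim Galore 0.5.0 and build hg19 (GRCh37) are named, per the submitters' processing notes. Neither aligner, annotation release nor strand setting is given in the sources used here. FPKM holds no counts, but the steps between low values of short genes put the depths of the libraries within 1.09-fold of each other; absolute depth is unknown.

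Genes with a mean of at least 1 FPKM entered a limma fit (version 3.58.1, R 4.3.3; mean-variance trend, Benjamini-Hochberg adjustment over all 15320 genes), KLF11 siRNA against control siRNA, on log2(FPKM + 1), which understates the change of low genes. An exact permutation test of 2 against 2 cannot go below p = 0.333 and was not used. The fit was checked on simulated data with the same noise for every gene, and only for the recovery of known changes. False calls were not checked. Folds are ratios of mean FPKM.

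The regulators and all gene lists were chosen with earlier results of these data known. Named genes are all regulators and, per list, up to 4 called genes with the smallest adjusted p. Other called genes of short counts and genes below the filter were named after their values were seen. So were the uncalled genes HSPA5, DNAJC3, IMPACT, EIF2AK1, EIF2AK2, EIF2AK3, PPP1CA and PPP1R15A. Lists are described by counts and medians only. Promoters come from RefSeq GRCh38.p14 and overlaps from GENCODE 29, whose build differs from that of the table. Alternatives were pseudocounts of 0.1 and 5, other filters, scalings and variance models, a replicate block and each library left out. Figures were drawn with matplotlib 3.10.9.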

Additional observations from a re-analysis of the deposited data

How the results depend on the processing

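Over the 9 alternatives that kept all libraries, the calls of ATF4, CHAC1 and GDF15 held wherever each was tested, ATF5 missed the threshold with no filter (adjusted p = 0.0569) and TRIB3 likewise (0.0784). With no filter 3 regulators were called higher, and 887 of all genes were higher and 1251 lower, over 34232 genes tested; a filter of mean FPKM 5 left 6 regulators tested and 3 called higher. With single libraries left out, 0 to 5 regulators were called higher and 0 to 1 lower, and 0 to 2291 of all genes higher and 0 to 3813 lower. The count of 0 arose without either control library, and 1 lower regulator, DDIT4, without KLF11 siRNA replicate 2; the cause was not tested. With the replicate number as a block (replicate block) 5 regulators were again called higher and 0 lower, with 1707 of all genes higher and 2644 lower. The numbers do not show paired samples (deviations of same-numbered libraries correlated at -0.07, across genes). Of 26 counts over the pathway lists, 26 stayed within 1.5 times with either pseudocount, 22 with TPM scaling, 18 with median-of-ratios scaling, 21 with the block and 11 with no filter, where the other 15 fell. Levels near 1 FPKM, as for TRIB3, CHAC1 and GDF15 in control libraries, depend most on the pseudocount: the log2 change of TRIB3 was 1.47 with 0.1 and 0.36 with 5.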
